A study of Mus musculus with 8 samples.

Results

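The genes described here are 35 imprinted mouse genes, chosen by name for their known imprinting. They are grouped by the parental allele they are known to be expressed from and by the imprinted cluster they lie in. These genes, their classes and the other gene lists used below were chosen with earlier results of these data known. Of the 20976 genes in the deposited table, 34 of the 35 had a row (Slc38a4 was not analysed here), and 18 of these are known as paternally and 16 as maternally expressed. They belong to 19 clusters with Slc38a4 counted, and 8 of the 34 were classed as imprinted in some tissues only (tissue-limited). Of the 34 genes, 29 passed the filter on low values, and Mirg, Nap1l5, Phlda2, Slc22a18 and Ascl2 did not. Peg10, Rtl1 and Cdkn1c, imprinted as well, were left out by the rule that chose the genes.

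The libraries come from cultured mouse muscle stem cells, the satellite cells that rebuild muscle fibres after injury. All 8 libraries were made from cells of mice with loxP sites on both copies of Chd4, which encodes the ATPase subunit of NuRD, a chromatin remodeller. The cells were purified by flow cytometry and expanded briefly in DMEM with serum and bFGF. In 1 group an adenovirus with Cre recombinase removed Chd4 exons 12 to 21, and in the other an adenovirus with GFP served as the control. Each group held 4 libraries, numbered 1 to 4, from 4 mice per condition according to the design text. Neither the age and sex of the mice nor a shared mouse behind equal numbers is given in the labels, so p-values concern these libraries. Unpaired fits measure the spread between the libraries. Fits that pair equal numbers (below) measure the spread of the Cre and GFP differences within numbers. The control lacks Cre as well as the deletion, and effects of Cre itself cannot be told apart from those of the deletion. RNA was measured in bulk, so more cells that express a gene and more of its RNA per cell cannot be told apart. Reads were counted per gene, so they do not say which parental allele a transcript came from.

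Genomic imprinting marks some genes in the germ line so that only the copy from 1 parent is transcribed. The mark is DNA methylation of a control region, laid down in egg or sperm and kept through cell division by Dnmt1 and Uhrf1, and it often acts on a whole cluster through a long noncoding RNA or a CTCF boundary. Several imprinted genes, among them H19, Igf2, Dlk1 and Meg3, are known for high expression in embryonic tissue and in muscle precursors, and many of them act on growth.

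Promoter sequence is shown for 6 genes because their changes are among the largest seen (Nnat, Nap1l5, Dlk1 and Meg3) or because they form the sense and antisense pair whose libraries did not overlap between groups (Igf2r and Airn). Each line gives the 250 bases before the annotated start from RefSeq (GRCm38.p6), read 5′ to 3′ along the strand of the gene, with every CpG, the dinucleotide that carries imprinted methylation, in capitals.
Nnat, chr2:157559828-157560077, plus strand: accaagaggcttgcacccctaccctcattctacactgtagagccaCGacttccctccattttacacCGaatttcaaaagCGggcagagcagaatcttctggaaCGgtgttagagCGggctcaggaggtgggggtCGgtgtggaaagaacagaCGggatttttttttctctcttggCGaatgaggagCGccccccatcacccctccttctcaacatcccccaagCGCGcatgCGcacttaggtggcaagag
Nap1l5, chr6:58907127-58907376, minus strand: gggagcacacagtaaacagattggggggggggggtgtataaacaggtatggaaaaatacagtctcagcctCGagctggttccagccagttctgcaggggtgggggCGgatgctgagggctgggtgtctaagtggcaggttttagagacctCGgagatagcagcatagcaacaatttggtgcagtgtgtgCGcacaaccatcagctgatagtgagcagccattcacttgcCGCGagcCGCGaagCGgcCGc
Dlk1, chr12:109452573-109452822, plus strand: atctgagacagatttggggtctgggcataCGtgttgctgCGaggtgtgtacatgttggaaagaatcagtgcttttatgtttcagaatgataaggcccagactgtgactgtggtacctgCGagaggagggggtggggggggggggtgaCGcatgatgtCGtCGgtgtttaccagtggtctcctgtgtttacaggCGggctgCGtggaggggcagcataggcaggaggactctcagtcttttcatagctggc
Meg3, chr12:109540746-109540995, plus strand: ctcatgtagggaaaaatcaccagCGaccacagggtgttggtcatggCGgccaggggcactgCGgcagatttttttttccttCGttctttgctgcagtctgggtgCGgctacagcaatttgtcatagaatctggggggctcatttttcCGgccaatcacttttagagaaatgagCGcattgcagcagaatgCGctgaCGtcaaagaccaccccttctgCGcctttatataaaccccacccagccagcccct
Igf2r, chr17:12769707-12769956, minus strand: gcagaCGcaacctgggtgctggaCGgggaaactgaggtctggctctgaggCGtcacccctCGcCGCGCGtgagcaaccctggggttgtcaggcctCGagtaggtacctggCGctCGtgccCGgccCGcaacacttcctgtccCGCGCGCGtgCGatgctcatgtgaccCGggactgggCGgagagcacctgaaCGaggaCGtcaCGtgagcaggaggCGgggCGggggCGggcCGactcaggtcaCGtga
Airn, chr17:12741061-12741310, plus strand: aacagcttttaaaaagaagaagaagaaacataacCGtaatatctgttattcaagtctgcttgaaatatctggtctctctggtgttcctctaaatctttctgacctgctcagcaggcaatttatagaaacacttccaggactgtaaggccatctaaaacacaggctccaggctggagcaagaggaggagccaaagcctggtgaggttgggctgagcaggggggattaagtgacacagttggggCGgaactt
The Igf2r stretch held 27 CpGs, that of Nnat 12, those of Nap1l5 and Meg3 10 each, that of Dlk1 8 and that of Airn 2. In the full windows, which run from 250 bases before to 50 bases after a start, 20 of the 46 windows of 29 imprinted genes (43.5%) were rich in CpG, defined as a GC content of at least 50% and an observed to expected CpG ratio of at least 0.6. Among all 32851 windows of the table the share was 33.5%. Counted per gene with any CpG-rich window, and not per window as above, 16 of the 29 imprinted genes with a window had one. These 29 are not the 29 tested genes. They include the untested Mirg, Nap1l5, Phlda2, Slc22a18 and Ascl2 and lack H19, Sgce, Trappc9, Peg13 and Impact. A share per gene over all genes was not taken. Of genes that rose with the replicate block (below), 8 of 15 with a window had a CpG-rich one, against 2 of 3 that fell and 3 of 6 that did not pass the test. The letters CAGCTG, a core that muscle regulatory factors can bind, were found on either strand in 3 of the 46 imprinted windows (6.52%; Mest, Nap1l5 and Phlda2) and in 16.3% of all windows. AANATGGC, a core of the Yy1 motif, was found on either strand in 1 of the 46 (2.17%; Ube3a) and in 6.05% of all windows. The windows of Peg3 and Usp29, which start in opposite directions, share 263 bases.

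The deposited values are read counts per gene that were scaled between libraries and rounded, here called normalised reads, with totals of 27897860 to 28876348 per library. Chd4 stood at 3686 to 5480 in Cre and at 15904 to 20121 in GFP, which matches the labels. Libraries with the same number deviated together from their group means (correlations across genes of 0.820 to 0.908, against -0.597 to 0.477 for different numbers). Libraries 1 and 4 of both groups held Xist and libraries 2 and 3 Y-linked reads. On these values alone, equal numbers were treated as pairs. Tests of the imprinted genes described are given with and without the number as a block. Marker counts are given with the block, and without it at the end of this paragraph. Of 10 listed satellite cell markers 9 had a row, Chodl had none and Calcr averaged under 10. Their summed levels were 72549 to 95160 in Cre and 72313 to 83862 in GFP, and 1 of 8 tested rose and 3 fell with the block. All 19 tested markers of differentiating muscle rose with the block and all 12 cell cycle genes fell. Beside these and the other marker counts of this paragraph, the block called 22.2% of all genes higher and 21.7% lower. Summed levels of the muscle list were 223394 to 577639 in Cre and 183748 to 496260 in GFP, those of the cell cycle list 18692 to 46263 and 38334 to 77381. Of 8 tested fibroblast and pericyte markers 5 rose and 1 fell with the block, with sums of 40396 to 81621 in Cre and 21437 to 43319 in GFP. Kcnj8 and Dcn averaged under 10, and Dpt and Lum had no row. Endothelial markers summed to 371 to 763 in Cre and 252 to 381 in GFP, and 1 of 3 tested rose. Cldn5 and Cdh5 averaged under 10, and Emcn and Tie1 had no row. Immune markers summed to 132 to 458 in Cre and 56 to 283 in GFP. Only Cd68 among them was tested, and it rose. Cd79a, Itgam and Fcer1g averaged under 10, and Ptprc, Adgre1, Lyz2, Tyrobp and Cd3e had no row. Glial and neural markers summed to 730 to 1318 in Cre and 369 to 781 in GFP, and 2 of 3 tested rose. S100b and Snap25 averaged under 10, and Gfap and Sox10 had no row. The part of these shifts in the results on imprinted genes was not tested. Without the block, 0 genes of the satellite, muscle, cell cycle, endothelial, immune and glial and neural lists passed. Of the fibroblast and pericyte markers, 3 of 8 were called higher without the block, beside 0.837% of all genes.

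Imprinted genes were mostly higher with Cre within pairs, led by Nnat and the chromosome 12 cluster of Dlk1, Meg3 and Rian. Sgce, Ppp1r9a, Snrpn, Plagl1 and Trappc9 were called lower, a share under that of all genes. Of these lower calls, 0 held in all 13 settings with the replicate block. With the replicate block, 17 of the 29 tested genes rose and 5 fell (limma, Benjamini-Hochberg adjusted p under 0.05 over all 12910 genes tested), shares of 58.6% and 17.2%. Over all genes tested the block called 22.2% higher and 21.7% lower. Because the imprinted genes were chosen with earlier results of these data known, their shares describe this list only. Without the block no imprinted gene passed in either direction, against 0.837% of all genes higher and 0.248% lower. When p was not adjusted (under 0.05), the unblocked fit had 6 imprinted genes higher and 0 lower, against 956 and 1201 of all 12910 genes. Limma with voom weights and no block called 0 imprinted genes as well, against 153 of all genes. The median log2 change of the 29 genes was 0.24, that of all genes -0.00081. Cre was above GFP in 4 of 4 pairs for 17 of the 29 genes (27.9% of all genes) and below in 4 of 4 for 5 (27.6% of all genes), and 7 were mixed. Only Copg2, Igf2r and Airn were tested genes whose 4 Cre libraries all exceeded all 4 GFP libraries (4.41% of all genes), and 0 lay wholly below (6.17% of all genes). In the sentences that follow, rose and fell mark genes that passed with the block, a log2 change is that of log2(value + 1), Cre against GFP, with the standard error of the blocked fit, and means are given ± SD with n = 4 per group.

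**Figure D1:**
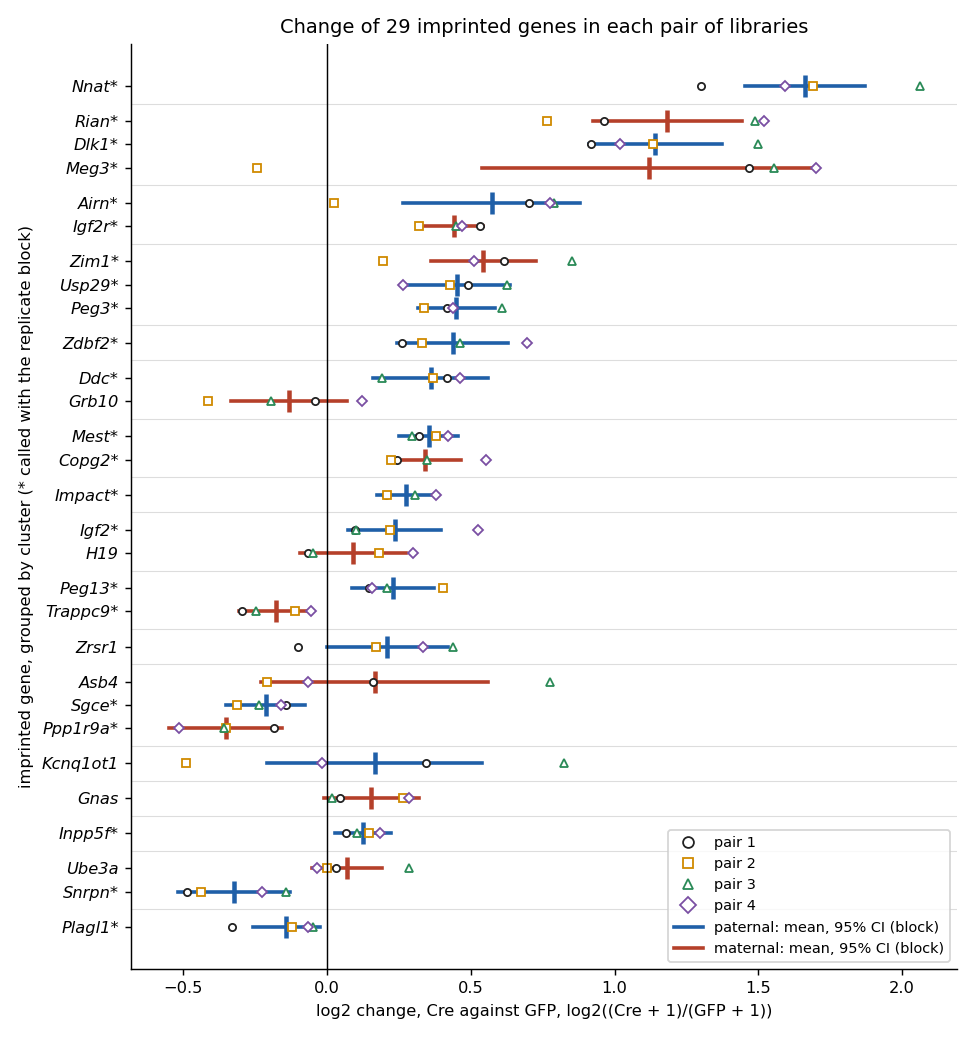
Log2 change of the 29 tested imprinted genes in each pair of same-numbered libraries (open symbols), with the mean (tick) and the 95% confidence interval of the blocked fit (bar), blue for paternally and red for maternally expressed genes. Nnat, Rian, Dlk1 and Meg3 stand to the right with mean changes above 1, and only Meg3 among these has a pair below 0; asterisks mark the 22 genes called with the block.

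By level per kilobase of exon in the GFP libraries, H19 was the most abundant of the 34 genes at 121066 normalised reads per kb, and its 4 libraries did not overlap those of the next gene. H19, a noncoding RNA, took 1.09% of all reads on average (0.758 to 1.42%). Igf2 (11793 per kb), Mest (8388 per kb) and Peg3 (5936 per kb) followed, and the library ranges of Igf2 and Mest and of Mest and Peg3 overlapped. Plagl1 stood at 2069, Igf2r at 1145 and Nnat at 1065 per kb. Of the 33 pairs of neighbours in this order, 28 had overlapping ranges. Kcnq1ot1, Mirg, Slc22a18, Phlda2 and Ascl2 closed the order with means of 2.79 per kb or less, and Ascl2 was listed at 0 in every GFP library.

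The chromosome 12 cluster moved upward on both parental sides. Dlk1, paternally expressed, encodes a transmembrane protein related to Notch ligands that is made by muscle and fat precursors (chr12:109452849-109463336, plus strand, protein coding). Dlk1 stood at 237, 525, 403 and 443 normalised reads with Cre (libraries 1 to 4) and at 125, 239, 142 and 218 with GFP. Cre libraries 2 to 4 lay above every GFP library, and Cre library 1 fell just under the highest of them. Mean values were 181 ± 55.9 in GFP and 402 ± 121 in Cre, a log2 change of 1.14 ± 0.10 (2.21-fold; adjusted p = 2.59e-05 with the block and 0.121 without it), higher in 4 of 4 pairs. Rian, a maternally expressed noncoding RNA that hosts small nucleolar RNAs (chr12:109603940-109661716, plus strand), stood at 841, 2952, 557 and 670 normalised reads with Cre (libraries 1 to 4) and at 431, 1736, 198 and 233 with GFP. Number 2 was highest in both groups, so the groups overlapped although Rian was higher in each of the 4 pairs. Its mean was 649.5 ± 732 in GFP and 1255 ± 1137 in Cre, a log2 change of 1.18 ± 0.12 (adjusted p = 3.65e-05 with the block and 0.479 without it).

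Meg3, the maternally expressed long noncoding RNA at the head of the same transcribed domain (chr12:109541005-109571726, plus strand), stood at 281, 340, 149 and 392 normalised reads with Cre (libraries 1 to 4) and at 101, 403, 50 and 120 with GFP. Pair 2 went the other way from the rest: GFP library 2 was the highest library of all. The mean was 168 ± 159 in GFP and 290.5 ± 105 in Cre, a log2 change of 1.12 ± 0.26 (adjusted p = 0.00604 with the block and 0.397 without it). Meg3 lost its call with pair 3 left out (adjusted p = 0.0539 with the block). Mirg, the microRNA host at the far end of the domain (chr12:109729764-109749460, plus strand), was too low to be tested and stood at 26, 49, 26 and 39 normalised reads with Cre (libraries 1 to 4) and at 7, 34, 7 and 26 with GFP. Each Cre library of Mirg exceeded the GFP library of its number. When all genes were tested without a filter, Mirg had a log2 change of 1.15 (adjusted p = 0.0171 with the block and 0.409 without it).

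Nnat and Nap1l5 are small paternally expressed genes that each lie inside an intron of a larger gene. Nnat encodes neuronatin, a membrane proteolipid of the endoplasmic reticulum, and sits within Blcap on the opposite strand (chr2:157560078-157562522, plus strand). Nnat stood at 3774, 4128, 2338 and 13349 normalised reads with Cre (libraries 1 to 4) and at 1533, 1278, 559 and 4419 with GFP. Number 4 was highest and number 3 lowest in both groups, and the groups overlapped for that reason, since each pair went up by between 1.30 and 2.06 on the log2 scale. Its mean was 1947 ± 1699 in GFP and 5897 ± 5028 in Cre, a log2 change of 1.66 ± 0.09 (3.16-fold; adjusted p = 1.83e-06 with the block and 0.284 without it), the largest of the 29 tested genes. Blcap itself had a log2 change of 0.24 (adjusted p = 0.00124 with the block and 0.604 without it), and whether counting used strand is not given in the sources used here. Nap1l5, a relative of nucleosome assembly proteins, sits within Herc3 on the opposite strand (chr6:58905233-58907076, minus strand) and was too low to be tested. It stood at 53, 102, 94 and 27 normalised reads with Cre (libraries 1 to 4) and at 12, 18, 26 and 9 with GFP, with every Cre library above every GFP library. Nap1l5 averaged 16.2 ± 7.50 in GFP and 69.0 ± 35.3 in Cre, and without a filter its log2 change was 1.95 (adjusted p = 0.000264 with the block and 0.123 without it). Herc3, which hosts it, changed by 0.53 (adjusted p = 0.000379 with the block and 0.72 without it).

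**Figure D2:**
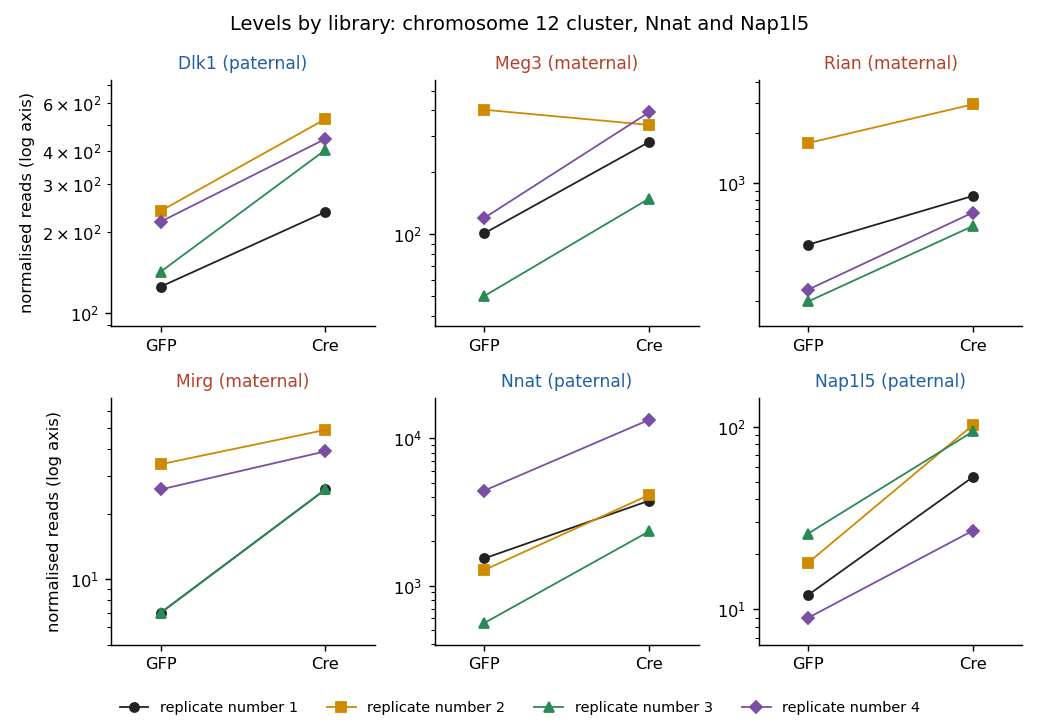
Normalised reads (log axis, each panel with its own scale) of the chromosome 12 cluster, Nnat and Nap1l5 in the GFP and Cre library of each replicate number, joined by lines; blue titles are paternally, red titles maternally expressed genes. Every line rises except number 2 of Meg3, which goes from 403 to 340, and in Mirg numbers 1 and 3 coincide at 7 and 26.

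H19 and Igf2 share enhancers and a methylated control region on chromosome 7, with H19 made from the maternal and Igf2 from the paternal copy. H19 (chr7:142575558-142578120, minus strand, noncoding) stood at 215700, 408636, 261921 and 410131 normalised reads with Cre (libraries 1 to 4) and at 226003, 360461, 271273 and 333550 with GFP. The groups overlapped, although Cre libraries 2 and 4 lay above every GFP library and Cre library 1 lay below every GFP library. Pairs 2 and 4 were higher and pairs 1 and 3 lower in Cre, and numbers 2 and 4 were high in both groups. With means of 297822 ± 60726 in GFP and 324097 ± 100274 in Cre, the log2 change was 0.09 ± 0.08 (95% confidence interval -0.09 to 0.27; adjusted p = 0.411 with the block and 0.910 without it). Igf2, which encodes insulin-like growth factor 2 (chr7:142650766-142666816, minus strand), stood at 52203, 94518, 84283 and 88155 normalised reads with Cre (libraries 1 to 4) and at 48803, 81231, 78645 and 61288 with GFP. It was higher in 4 of 4 pairs, most in pair 4 (0.52 on the log2 scale), and number 1 was lowest in both groups. Its mean was 67492 ± 15285 in GFP and 79790 ± 18869 in Cre, a log2 change of 0.24 ± 0.07 (adjusted p = 0.0239 with the block and 0.679 without it). The Igf2 call was lost with pair 2 (adjusted p = 0.073) or pair 4 (adjusted p = 0.103) left out. The difference between the changes of Igf2 and H19 was not tested.

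Igf2r and Airn overlap in opposite directions on chromosome 17, and both were higher in every pair. Igf2r, maternally expressed, encodes the receptor that takes up Igf2 for breakdown and sorts lysosomal enzymes (chr17:12682406-12769664, minus strand). Igf2r stood at 16442, 12619, 13029 and 16024 normalised reads with Cre (libraries 1 to 4) and at 11378, 10118, 9553 and 11578 with GFP. The lowest Cre library exceeded the highest GFP library, and numbers 1 and 4 were the higher ones in both groups. Means were 10657 ± 979 in GFP and 14528 ± 1983 in Cre, a log2 change of 0.44 ± 0.05 (1.36-fold; adjusted p = 4.84e-05 with the block and 0.119 without it). Airn, the paternally expressed noncoding RNA whose transcription is known to silence Igf2r on the same chromosome copy (chr17:12741311-12860122, plus strand), stood at 204, 176, 177 and 194 normalised reads with Cre (libraries 1 to 4) and at 125, 173, 102 and 113 with GFP. Its Cre libraries were close together and lay above all GFP libraries, by only 3 reads in the case of GFP library 2. Airn averaged 128 ± 31.3 in GFP and 188 ± 13.6 in Cre, a log2 change of 0.57 ± 0.14 (adjusted p = 0.00735 with the block and 0.187 without it). Reads of the overlap between these genes cannot be assigned to 1 of them without known strand use.

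In the Peg3 domain of chromosome 7 all 3 genes rose. Peg3, paternally expressed, encodes a large zinc finger protein found in muscle and other stem cells (chr7:6703892-6730421, minus strand). Peg3 stood at 103759, 90480, 97587 and 139472 normalised reads with Cre (libraries 1 to 4) and at 77735, 71622, 64067 and 102916 with GFP. Number 4 was highest in both groups, and the groups overlapped through GFP library 4. Its mean was 79085 ± 16842 in GFP and 107824 ± 21785 in Cre, a log2 change of 0.45 ± 0.06 (1.37-fold; adjusted p = 2.15e-04 with the block and 0.286 without it), higher in 4 of 4 pairs. Usp29, a ubiquitin protease gene that is paternally expressed from the start region it shares with Peg3 (chr7:6730583-6967219, plus strand), stood at 374, 381, 309 and 472 normalised reads with Cre (libraries 1 to 4) and at 266, 283, 200 and 393 with GFP. It followed the same order of numbers at its top, with number 4 highest, and averaged 286 ± 80.1 in GFP and 384 ± 67.0 in Cre. The log2 change of Usp29 was 0.45 ± 0.08 (adjusted p = 0.00160 with the block and 0.346 without it). Zim1, a maternally expressed zinc finger gene next to Peg3 (chr7:6671269-6696450, minus strand), stood at 8061, 6639, 6424 and 14320 normalised reads with Cre (libraries 1 to 4) and at 5262, 5806, 3555 and 10053 with GFP. It rose as well, so both parental classes of the domain moved in 1 direction. Zim1 averaged 6169 ± 2761 in GFP and 8861 ± 3711 in Cre, a log2 change of 0.54 ± 0.08 (adjusted p = 4.93e-04 with the block and 0.481 without it).

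Mest and Copg2 overlap tail to tail on chromosome 6 and both rose. Mest, paternally expressed, encodes a putative hydrolase that is abundant in embryonic mesoderm (chr6:30733506-30748465, plus strand). Mest stood at 22054, 42360, 42707 and 63248 normalised reads with Cre (libraries 1 to 4) and at 17693, 32556, 34808 and 47301 with GFP. The 4 pairs changed by similar amounts, between 0.30 and 0.42 on the log2 scale, while the mean of both groups was 2.77 times as high in number 4 as in number 1. The mean was 33090 ± 12142 in GFP and 42592 ± 16818 in Cre, a log2 change of 0.35 ± 0.05 (adjusted p = 1.86e-04 with the block and 0.701 without it). Copg2, a coat protein gene of the secretory pathway that is maternally expressed in some tissues (chr6:30747554-30896739, minus strand), stood at 3398, 3767, 3576 and 4332 normalised reads with Cre (libraries 1 to 4) and at 2873, 3233, 2812 and 2952 with GFP. No Cre library overlapped a GFP library. Copg2 averaged 2968 ± 186 in GFP and 3768 ± 405 in Cre, a log2 change of 0.34 ± 0.06 (adjusted p = 8.51e-04 with the block and 0.122 without it). The overlapping 3′ ends leave some reads of either gene that cannot be assigned without known strand use.

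**Figure D3:**
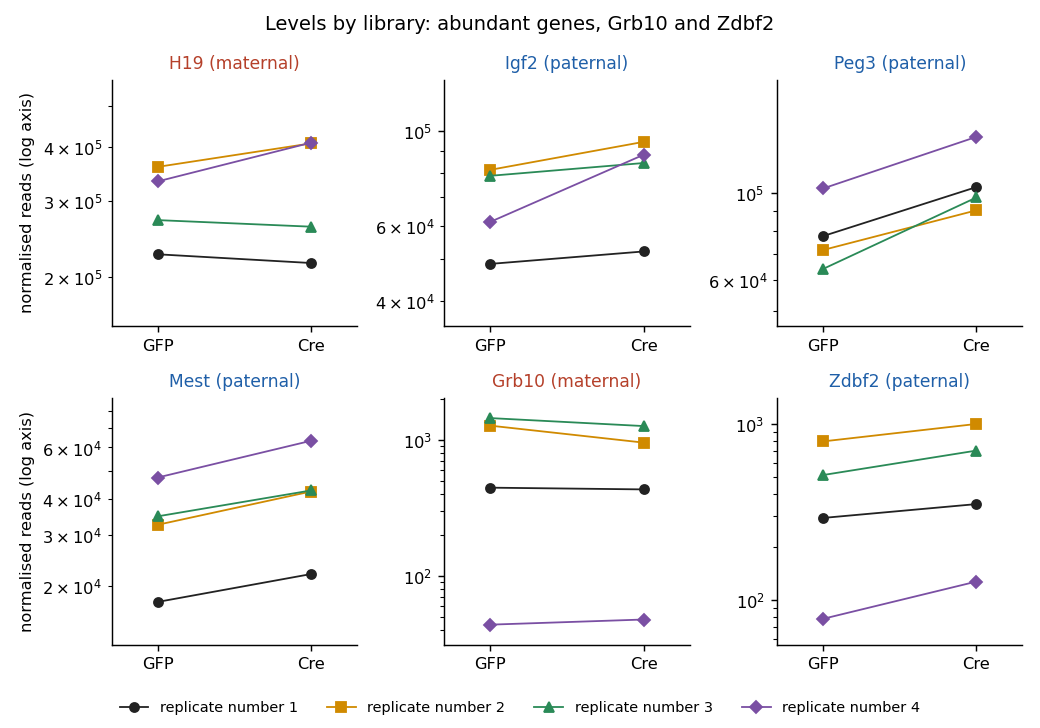
Normalised reads (log axis, each panel with its own scale) of 4 abundant imprinted genes and of Grb10 and Zdbf2 in the GFP and Cre library of each replicate number, joined by lines; blue titles are paternally, red titles maternally expressed genes. Peg3 and Mest rise along all 4 lines, H19 along 2, and in Grb10 number 4 lies at 44 to 48 while the other numbers lie between 435 and 1456.

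With the block 5 of the 29 tested genes fell, beside 21.7% of all genes. They were Sgce and Ppp1r9a of the Peg10 and Sgce cluster on chromosome 6, Snrpn, Plagl1 and Trappc9. Sgce, paternally expressed, encodes epsilon-sarcoglycan of the dystrophin-associated complex (chr6:4674350-4747207, minus strand). Sgce stood at 446, 564, 596 and 668 normalised reads with Cre (libraries 1 to 4) and at 493, 702, 703 and 746 with GFP. Every Cre library was under the GFP library of its number, but the groups overlapped because number 1 was low in both. Means were 661 ± 114 in GFP and 568 ± 92.5 in Cre, a log2 change of -0.21 ± 0.06 (adjusted p = 0.0177 with the block and 0.581 without it), and the call was lost with pair 2 (adjusted p = 0.0917) or pair 3 (adjusted p = 0.0538) left out. Ppp1r9a, which encodes neurabin and is maternally expressed in some tissues (chr6:4902974-5165661, plus strand), stood at 174, 307, 246 and 178 normalised reads with Cre (libraries 1 to 4) and at 198, 392, 316 and 255 with GFP. It was lower in 4 of 4 pairs with overlapping groups. Ppp1r9a averaged 290.2 ± 83.2 in GFP and 226 ± 63.2 in Cre, a log2 change of -0.35 ± 0.09 (adjusted p = 0.00876 with the block and 0.548 without it; 0.0501 with the block when pair 4 was left out). Asb4, a maternally expressed gene of the same cluster that encodes a ubiquitin ligase adaptor, stood at 85, 57, 100 and 64 normalised reads with Cre (libraries 1 to 4) and at 76, 66, 58 and 67 with GFP, with overlapping groups and pairs in both directions, and had a log2 change of 0.17 ± 0.18 (adjusted p = 0.487 with the block and 0.770 without it). Peg10, the neighbour of Sgce left out by the rule, stood at 26251, 18842, 14454 and 18120 in Cre and at 5865, 4929, 4200 and 6005 in GFP, a log2 change of 1.87 in the direction opposite to Sgce (adjusted p = 3.45e-07 with the block and 0.00804 without it).

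Snrpn, paternally expressed, encodes a small nuclear ribonucleoprotein of the Prader-Willi region (chr7:59982495-60140219, minus strand). Snrpn stood at 212, 328, 266 and 250 normalised reads with Cre (libraries 1 to 4) and at 298, 445, 294 and 293 with GFP. GFP library 2 was far above the other GFP libraries, which lay within 5 reads of each other, and Cre was lower in 4 of 4 pairs. Its mean was 332 ± 75.0 in GFP and 264 ± 48.3 in Cre, a log2 change of -0.33 ± 0.09 (adjusted p = 0.0128 with the block and 0.433 without it), and the call was lost with pair 2 left out (adjusted p = 0.065). Ube3a, the ubiquitin ligase gene of the same region that is maternally expressed in neurons, stood at 5256, 5226, 5139 and 5180 normalised reads with Cre (libraries 1 to 4) and at 5142, 5233, 4219 and 5312 with GFP. Its Cre libraries were almost equal and lay within the range of the GFP libraries, and its log2 change was 0.07 ± 0.05 (95% confidence interval -0.05 to 0.19; adjusted p = 0.334 with the block and 0.737 without it). Plagl1, a paternally expressed zinc finger gene that is known to act on other imprinted genes (chr10:13090788-13131694, plus strand), stood at 14879, 14019, 12782 and 16717 normalised reads with Cre (libraries 1 to 4) and at 18716, 15258, 13231 and 17495 with GFP. Most of its difference lay in pair 1, at -0.33 on the log2 scale. Plagl1 averaged 16175 ± 2429 in GFP and 14599 ± 1654 in Cre, a log2 change of -0.14 ± 0.05 (adjusted p = 0.0484 with the block and 0.640 without it). Its call was lost with any 1 of the 4 pairs left out (adjusted p = 0.0518 to 0.246), without a filter (0.0734) and with median-ratio rescaling (0.0627).

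Peg13 and Trappc9 were called in opposite directions within the blocked fit. Peg13 is a paternally expressed noncoding RNA inside an intron of Trappc9, on the same strand (chr15:72805600-72810324, minus strand). Peg13 stood at 917, 650, 665 and 1003 normalised reads with Cre (libraries 1 to 4) and at 829, 491, 575 and 900 with GFP. Numbers 1 and 4 were high in both groups, and each Cre library exceeded the GFP library of its number. Its mean was 699 ± 197 in GFP and 809 ± 178 in Cre, a log2 change of 0.23 ± 0.06 (adjusted p = 0.0145 with the block and 0.687 without it; 0.0815 with the block when pair 2 was left out). Trappc9, a vesicle trafficking gene with maternal bias in brain (chr15:72589621-73061204, minus strand), stood at 666, 1145, 1073 and 1110 normalised reads with Cre (libraries 1 to 4) and at 818, 1236, 1273 and 1154 with GFP. Number 1 was low in both groups, and each Cre library was under the GFP library of its number. Trappc9 averaged 1120 ± 208 in GFP and 998 ± 224 in Cre, a log2 change of -0.18 ± 0.06 (adjusted p = 0.0300 with the block and 0.733 without it). The Trappc9 call was lost with pair 1 (adjusted p = 0.11), pair 2 (0.0561) or pair 3 (0.104) left out. Reads from unspliced Trappc9 and from Peg13 cannot be told apart where they overlap, and the difference between the changes of these genes was not tested.

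Grb10 and Ddc are neighbours on chromosome 11. Grb10, an adaptor that dampens insulin and growth factor signalling and is maternally expressed outside the brain (chr11:11930508-12037401, minus strand), stood at 435, 961, 1272 and 48 normalised reads with Cre (libraries 1 to 4) and at 448, 1281, 1456 and 44 with GFP. The numbers differed far more than the groups: number 4 was lowest and number 3 highest in both groups, and the groups overlapped almost completely. Means were 807 ± 673 in GFP and 679 ± 544 in Cre, a log2 change of -0.13 ± 0.09 (95% confidence interval -0.33 to 0.07; adjusted p = 0.266 with the block and 0.979 without it), and with voom weights and the block Grb10 was called lower (adjusted p = 0.0208). Ddc, which encodes aromatic amino acid decarboxylase and is imprinted in heart (chr11:11814101-11898144, minus strand), stood at 158, 362, 299 and 261 normalised reads with Cre (libraries 1 to 4) and at 118, 280, 262 and 189 with GFP. It rose in each pair, with number 1 lowest in both groups. Ddc averaged 212 ± 74.1 in GFP and 270.0 ± 85.5 in Cre, a log2 change of 0.36 ± 0.09 (adjusted p = 0.00837 with the block and 0.653 without it).

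The other paternally expressed genes that rose lie alone or in small domains. Zdbf2, a zinc finger gene of chromosome 1 (chr1:63273265-63314576, plus strand), stood at 350, 999, 705 and 127 normalised reads with Cre (libraries 1 to 4) and at 292, 795, 512 and 78 with GFP. Its order of numbers was 2, 3, 1 and 4 from high to low in both groups. The mean was 419 ± 307 in GFP and 545 ± 385 in Cre, a log2 change of 0.44 ± 0.09 (adjusted p = 0.00248 with the block and 0.852 without it). Impact, a regulator of the amino acid starvation response, stood at 6021, 3793, 3403 and 3664 normalised reads with Cre (libraries 1 to 4) and at 5225, 3287, 2754 and 2816 with GFP. Number 1 was highest in both groups and every pair was higher in Cre. Impact averaged 3520 ± 1161 in GFP and 4220 ± 1211 in Cre, a log2 change of 0.27 ± 0.05 (adjusted p = 7.92e-04 with the block and 0.638 without it). Inpp5f, an inositol phosphatase gene imprinted through a brain transcript (chr7:128611360-128696425, plus strand), stood at 2172, 2087, 1854 and 3241 normalised reads with Cre (libraries 1 to 4) and at 2075, 1886, 1724 and 2851 with GFP. It showed the smallest called change, with a mean of 2134 ± 499 in GFP and 2338 ± 617 in Cre and a log2 change of 0.13 ± 0.04 (adjusted p = 0.0398 with the block and 0.824 without it). The Inpp5f call was lost with pair 2 (adjusted p = 0.133), pair 3 (0.0596) or pair 4 (0.156) left out, with voom weights (0.0685), without a filter (0.0598) and with total-count rescaling (0.072).

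Several genes of other clusters did not pass in either fit. Gnas, which encodes the stimulatory G protein subunit and is imprinted through alternative starts (chr2:174284320-174346744, plus strand), stood at 316, 607, 489 and 569 normalised reads with Cre (libraries 1 to 4) and at 306, 505, 483 and 467 with GFP. Number 1 was low in both groups. Gnas averaged 440.2 ± 90.8 in GFP and 495 ± 129 in Cre, a log2 change of 0.15 ± 0.07 (95% confidence interval -0.01 to 0.32; adjusted p = 0.123 with the block and 0.814 without it). Zrsr1, a splicing factor gene of retroposed origin within Commd1, stood at 435, 421, 362 and 305 normalised reads with Cre (libraries 1 to 4) and at 467, 374, 267 and 242 with GFP. Its pair 1 went down and its other pairs up, with a log2 change of 0.21 ± 0.10 (adjusted p = 0.0992 with the block and 0.707 without it), and without pair 1 it was called higher (adjusted p = 0.0214 with the block). Kcnq1ot1, the paternally expressed noncoding RNA that silences the Kcnq1 cluster, stood at 342, 226, 396 and 225 normalised reads with Cre (libraries 1 to 4) and at 269, 318, 223 and 228 with GFP. Pairs 1 and 3 were higher and pairs 2 and 4 lower, and the log2 change was 0.17 ± 0.17 (adjusted p = 0.463 with the block and 0.773 without it).

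Slc22a18, Phlda2 and Ascl2, maternally expressed genes of the Kcnq1 cluster, did not pass the filter on low values. Slc22a18, a membrane transporter gene, stood at 71, 18, 20 and 9 normalised reads with Cre (libraries 1 to 4) and at 8, 0, 2 and 1 with GFP, so its Cre libraries all lay above its GFP libraries although the GFP libraries held at most 8 reads. Without a filter Slc22a18 was called higher with the block (adjusted p = 0.000429, and 0.128 without the block). Phlda2, a placental growth gene, was at 2, 5, 1 and 0 normalised reads with Cre (libraries 1 to 4) and at 3, 0, 0 and 0 with GFP, and Ascl2, a transcription factor gene, at 7, 1, 0 and 3 with Cre (libraries 1 to 4) and at 0, 0, 0 and 0 with GFP. Both were too low for a change to be detected at this depth.

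Both parental classes had more genes called higher than lower. The counts of this paragraph stand beside 22.2% higher and 21.7% lower calls over all genes with the block. Of 17 tested paternally expressed genes 12 rose, 3 fell and 2 did not pass with the block, with a median log2 change of 0.27. Of 12 tested maternally expressed genes 5 rose, 2 fell and 5 did not pass, with a median of 0.16. Among genes not classed as tissue-limited, 10 of 15 paternal genes rose and 3 fell, and 4 of 7 maternal genes rose and 0 fell (median 0.44). Grb10 was counted among these 7. The 7 tested genes with tissue-limited imprinting had 3 higher and 2 lower calls. The difference between the classes was not tested. By cluster, the Dlk1 and Meg3, Peg3, Mest and Igf2r clusters had all of their tested genes called higher, the Peg10 and Sgce cluster had 2 of 3 called lower, and in the Grb10, Igf2 and Snrpn clusters 1 gene of each was called and the other was not. Of the 34 genes, 19 overlap another gene of the table and 12 overlap one on the opposite strand, so their reads are uncertain to that extent.

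The spread of the imprinted genes over the replicate numbers was set beside the Cre change. For each number the Cre and GFP values were averaged on the log2 scale, and the range over the 4 numbers was taken. The median range was 0.79 for the 29 imprinted genes and 0.45 for all genes tested, and 22 of the 29 lay above the median of all genes. In 25 of 29 the range exceeded the size of the Cre change, which does not set them apart, since it did so in 87.0% of all genes; the exceptions were Dlk1, Airn, Igf2r and Copg2. Grb10 had a range of 4.86 (29.0-fold), larger than that of 99.7% of genes tested. Zdbf2 followed at 3.15, Rian at 2.76, Nnat at 2.75, Meg3 at 2.09 and Mest at 1.47, and these 6 genes each exceeded at least 90.2% of genes tested. The high and low numbers were not the same for all: number 4 was lowest for Grb10 and Zdbf2 but highest for Nnat and Mest, and number 2 was highest for Rian. Numbers 1 and 4, which carried Xist, lay both below numbers 2 and 3 for 7 genes (Zdbf2, Ddc, Igf2, Trappc9, Grb10, Snrpn and Ppp1r9a) and both above them for 7 others (Nnat, Zim1, Igf2r, Peg3, Peg13, Inpp5f and Plagl1), 24.1% each, against 20.4% and 21.6% of all genes. The muscle list was highest in numbers 2 and 3 in both groups, and its part in the order of numbers was not tested.

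**Figure D4:**
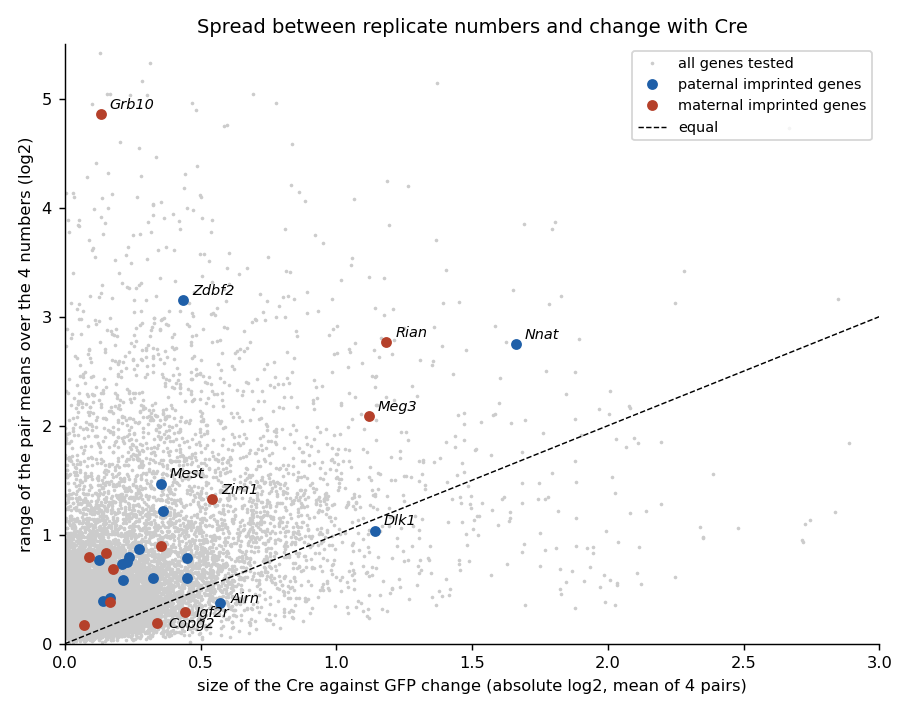
Size of the Cre change (x axis, absolute log2, mean of 4 pairs) against the range of the pair means over the 4 replicate numbers (y axis, log2) for all 12910 genes tested (grey) and the 29 imprinted genes (blue paternal, red maternal). Grb10 lies far up at 4.86 with a small Cre change, and Dlk1, Airn, Igf2r and Copg2 lie below the dashed line of equality; 12 genes lie beyond the x axis and 19 beyond the y axis.

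The genes around the imprinted clusters and the proteins that set or keep imprints were measured as well. Of 25 tested imprinted genes outside the 35, 12 rose and 2 fell with the block (median 0.18). Those with the smallest p with the block, which is not the order of their size, were Tnfrsf23 (log2 change 0.80), Tspan32 (1.47) and Qpct (1.22). Of 62 tested genes chosen as neighbours of the clusters 17 rose and 17 fell (median 0.0024), beside 22.2% and 21.7% of all genes. Among these Adam23, a cell adhesion gene 131319 bases from Zdbf2, changed by 1.88, Zik1, a zinc finger gene 3520010 bases from the nearest of them, by -0.59 and Tnnt3, a troponin gene 59550 bases from the nearest imprinted gene, by 0.50. The neighbours Slc38a1, Slc38a2, Scaf11 and Faim2 lie 23350494 to 26435801 bases from the nearest of the 34 genes. Herc2 lies 2996950 and Rbbp8 1229045 bases from it, and Pkd2 is on a chromosome that holds none of the 34. Of 28 tested imprint factors 2 rose and 11 fell (median -0.10). The fall included Dnmt1, the maintenance methyltransferase (log2 change -0.67), its partner Uhrf1 (-0.77) and the remodeller Hells (-0.68), each lower with an adjusted p of 0.000111 or less with the block. All 3 are also known to follow the cell cycle, and the 12 cell cycle genes fell beside them; their part in this was not tested. Without the block 0 genes of these 3 lists passed (limma), and at an unadjusted p under 0.05 there were 3, 3 and 0 higher and 0, 12 and 2 lower. Over all 12910 genes tested, 956 were higher and 1201 lower at that unadjusted threshold.

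**Figure D5:**
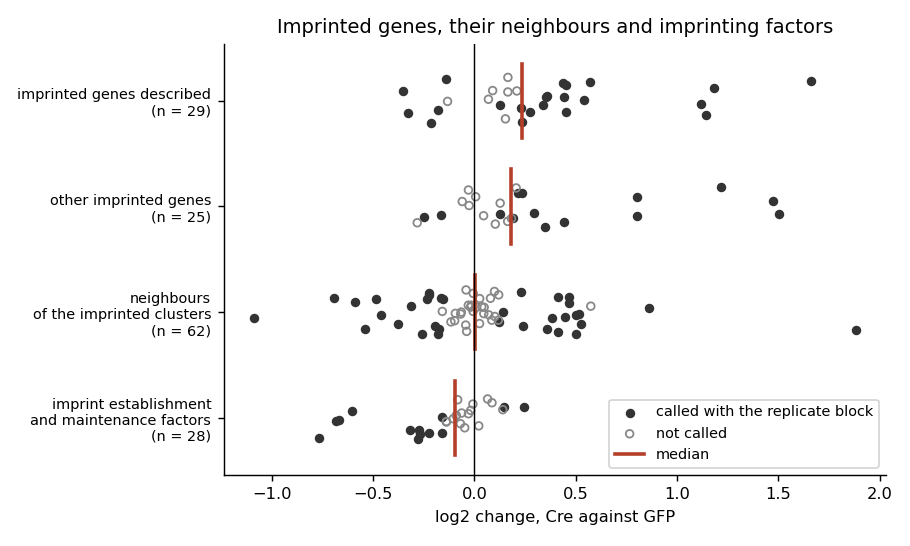
Log2 change, Cre against GFP, of single genes (points, filled where called with the block) in the imprinted genes described, other imprinted genes, neighbours of the clusters and imprint factors, with list medians in red. The medians lie at 0.24, 0.18, 0.0024 and -0.10; vertical scatter within a list carries no value.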

How the data were processed

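Total RNA of 8 libraries (4 Cre, 4 GFP) was analysed from 1 deposited table. The submitters' processing notes name STAR 2.5.3a, Subread with featureCounts 1.5.3 and DESeq, and the builds GRCm38 and mm10, with settings and strand use not given in the sources used here. The deposited values are whole numbers scaled between libraries and rounded, and so were treated as a score and not as raw counts. Coordinates are those of the table. Exon lengths came from GENCODE M21 and promoters from RefSeq (GRCm38.p6), which held no entry for H19, Sgce, Trappc9 and Peg13; the promoter of Impact was not used here.

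Genes with at least 1 CPM in at least 4 libraries (12910 of 20976) were tested on log2(value + 1), a scale that understates the change of low genes, by limma 3.58.1 with a mean trend (R 4.3.3). Two-sided p-values were adjusted by the Benjamini-Hochberg method over all genes tested, with a threshold of 0.05. The same genes were kept when libraries were left out. Groups and numbers came from the titles. The main fit had no block, since the labels do not say that equal numbers share a mouse. Deviations of same-numbered libraries correlated at 0.820 to 0.908, so a fit blocked by replicate number is printed beside it. Python 3.11.15, numpy 2.4.6, pandas 2.3.3 and matplotlib 3.10.9 made tables and figures.

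The 35 genes, their classes and the other lists were chosen with earlier results of these data known, and 1 gene of the glial and neural list is not reported here. The rule for the text was to name every one of the 35, with full statistics for those called in either fit and for H19, Igf2, Dlk1, Meg3, Igf2r, Grb10 and Gnas, and up to 3 genes of each other list with the smallest p with the block. Promoters, motifs, CpG limits, the order of the numbers, the genes drawn in panels, Peg10, Herc3, Blcap and the settings that combine the block with another scaling, pseudocount or filter were chosen after values were seen. Alternatives were other scalings, pseudocounts of 0.1 and 5, no filter or 5 CPM, voom weights, and each library or pair left out.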

Additional observations from a re-analysis of the deposited data

Results flagged for a closer look

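In each group of 4 libraries, the highest or lowest library was set apart when its gap to the nearest library took more than Dixon's critical share of the range on the log2 scale. This held in 6 of 67 groups screened, and chance sets apart about 1 in 20. Sgce in GFP library 1 was at 493 normalised reads, against 702 to 746 in the other GFP libraries. Snrpn in GFP library 2 was at 445, against 293 to 298. Ube3a in GFP library 3 was at 4219, against 5142 to 5312. Phlda2 in GFP library 1 was at 3, against 0 in the others. Gnas in GFP library 1 was at 306, against 467 to 505. Trappc9 in Cre library 1 was at 666, against 1073 to 1145. Of these, the Cre library of the same number was also the lowest of its group for Sgce (446), Ube3a (5139, against 5180 to 5256 in the other Cre libraries) and Gnas (316), and also the highest for Snrpn (328). For Trappc9 the GFP library of number 1 was also the lowest (818).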

How the results depend on the processing

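No imprinted gene was called without the block in any of the 17 unblocked settings. With the replicate block, taken from the pairing seen in the values, 17 imprinted genes were called higher and 5 lower. Leaving out pair 1, 2, 3 or 4 in the blocked fit gave 18, 14, 15 and 15 higher and 3, 1, 2 and 3 lower. Voom weights with the block gave 16 and 6, no filter 19 and 4, total-count rescaling 16 and 5, upper-quartile rescaling 17 and 5, median-ratio rescaling 17 and 4, and pseudocounts of 0.1 and 5 and a filter of 5 CPM 17 and 5 each. Of the 22 genes called with the block, 13 kept the call in all 13 blocked settings, and all 13 were higher in Cre. Over all genes, 108 were called higher and 32 lower without the block, 2861 and 2804 with it. Pairs 1 to 4 left out in turn gave 2648, 2304, 2482 and 2238 higher and 2365, 2289, 2379 and 2100 lower with the block, and voom weights gave 2612 and 3199. A filter of 5 CPM without the block gave 58 higher. Leaving out 1 library without the block gave 10 to 51 higher and 1 to 7 lower over all genes. Signs changed for 9 genes, all uncalled in the settings concerned. With pair 3 left out of the blocked fit, Asb4 was at -0.038, Ube3a at -0.0022 and Kcnq1ot1 at -0.055. With 1 library left out without the block, H19 ranged from -0.041 to 0.27, Grb10 from -1.23 to 0.88, Ube3a from -0.0079 to 0.10, Gnas from -0.012 to 0.36, Inpp5f from -0.043 to 0.27, Zdbf2 from -0.22 to 1.01 and Trappc9 from -0.32 to 0.0065. The causes were not tested. No scaling moved the median of all genes by more than 0.1. Depth limits Phlda2, Ascl2 and Slc22a18, at under 10 reads in every GFP library.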

Other observations

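Several imprinted transcripts are hosts of microRNAs, whose mature forms were not measured by these libraries. RefSeq places 14 microRNA hairpins inside Mirg, 3 inside Rian and 1 each inside Meg3, H19, Igf2, Usp29 and Mest, on the strand of the host. Of these 7 hosts, Rian, Meg3, Igf2, Usp29 and Mest rose with the replicate block, beside 22.2% of all genes, and none passed without it. The Meg3 call was lost with pair 3 left out, and the Igf2 call with pair 2 or pair 4 left out. H19 did not pass in either fit, and Mirg was tested only without a filter.

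Among imprinted genes that the selection left out, Cdkn1c, which encodes a cell cycle inhibitor expressed from the maternal copy of the Kcnq1 cluster, stood at 100, 120, 92 and 67 normalised reads with Cre (libraries 1 to 4) and at 25, 65, 47 and 43 with GFP. The lowest Cre library (67) lay only just above the highest GFP library (65), and 4.41% of all genes tested had no overlap in this direction. The log2 change of Cdkn1c was 1.10 (adjusted p = 0.00197 with the block and 0.145 without it). Rtl1, the retrotransposon-derived gene of the Dlk1 cluster, stood at 2, 8, 4 and 3 in Cre and at 2, 1, 0 and 1 in GFP, too low to be tested.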
